A study of Rattus norvegicus with 6 samples.

Results

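Axon-glia and Schwann adhesion molecules are represented here by 10 genes, taken by symbol: the L1 family (L1cam, Chl1, Nrcam, Nfasc), the Cadm family (Cadm1, Cadm2, Cadm3, Cadm4) and the cadherins Cdh2 and Cdh19. Each symbol matched 1 row of a table of 23091 genes, and all 10 were among the 13999 genes that passed the filter on low counts. The RNA came from regenerated sciatic nerve of wild-type male Sprague-Dawley rats with a surgical defect of that nerve. In the NC group (3 libraries) the wound was closed with no implant. In the other group (3 libraries, called implant 1 to implant 3) the defect was bridged with GDNF-Gel/HA-Mg, a nerve conduit carrying glial cell line-derived neurotrophic factor. The labels give no age, no time after surgery and no statement that each library is a separate animal, so the tests measure only the spread between these samples.

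Contact between an axon and its Schwann cell depends on these proteins. L1-family members are immunoglobulin-like molecules that bind each other, contactins and ankyrins, and they help axons grow and help build the nodes of Ranvier. Cadm proteins, also called nectin-like or SynCAM proteins, line the internode, where Cadm4 on the Schwann cell binds Cadm3 on the axon. Cadherins join Schwann cells to each other and to growing axons. Most nerve cell bodies lie outside the sciatic nerve, so the RNA of a nerve segment comes mainly from Schwann cells, fibroblasts, vessels and blood cells.

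The libraries held 15897850 to 18491379 counts each. The Schwann lineage markers Sox10, Erbb3 and Foxd3 were detected in each library, as a nerve label requires. NC 3 stood apart: Sox10 was at 21.8 CPM (counts-per-million, with TMM scaling) there and at 122 to 243 in the other libraries. Haemoglobin took 25.2% of the counts of NC 3, against 1.02% to 14.8% elsewhere. The 4 fat cell markers summed to 4290 CPM in NC 3 and to 545 to 1310 in the rest. The 7 neuronal markers, 5 of them tested, summed to 10.4 to 56.8 CPM in NC and to 10.3 to 95.2 CPM with the conduit, with Syt1 at 0 to 4 counts and Rbfox3 at 1 to 8. Skeletal muscle markers (5 of 6 in the table) summed to 21.0 to 994 CPM in NC and to 62.2 to 6470 CPM with the conduit. Mbp, which encodes myelin basic protein, ranged widely within both groups. Its CPM was 295 in NC 1, 6100 in NC 2, 420 in NC 3, 2530 in implant 1, 266 in implant 2 and 3080 in implant 3. In bulk tissue, fewer cells of a type and less RNA per cell cannot be told apart.

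None of the 10 adhesion genes passed the test between the groups, and 9 of them spanned at least 4-fold over the 6 libraries. In edgeR's quasi-likelihood test with Benjamini-Hochberg adjustment over all genes, 0 of 10 were called, as were 0% of all genes tested. The smallest unadjusted p among them was 0.553 (Cdh2), and at an unadjusted p under 0.05 edgeR found 0 of 10 against 1.72% of all genes. DESeq2 called 0 of 10 as well, against 0.0786% of all genes, and at an unadjusted p under 0.05 it found 0 of 10 against 2.33% of all genes. The groups overlapped in all 10 genes, whereas in 5.69% of all genes the 3 libraries of one group lay above those of the other. The edgeR log2 fold changes of the 10 ran from -0.14 to 0.24 with a median of 0.06, where all genes had a median of -0.01. With limma-voom, which fits log2 CPM, all 10 were positive, from 0.16 to 0.61, where all genes had a median of 0.01. The share of all genes that were positive with voom is not given. All 10 genes lay below their own mean in NC 3, so their signs are not independent.

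The spread between libraries was the main feature of these genes. Their median span, highest minus lowest library, was 2.91 log2 units, against 0.74 for all genes tested, and 14.2% of all genes spanned 2 units (4-fold) or more. NC 2 held the highest level of 7 of the 10 and of 25.4% of all genes, and NC 3 the lowest level of 8 of the 10 and of 24.8% of all genes. Without NC 3, a view taken after the data were seen, the median span was 2.02 against 0.60 for all genes, and 6 of the 10 spanned 4-fold or more, against 10.1% of all genes.

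**Figure D1:**
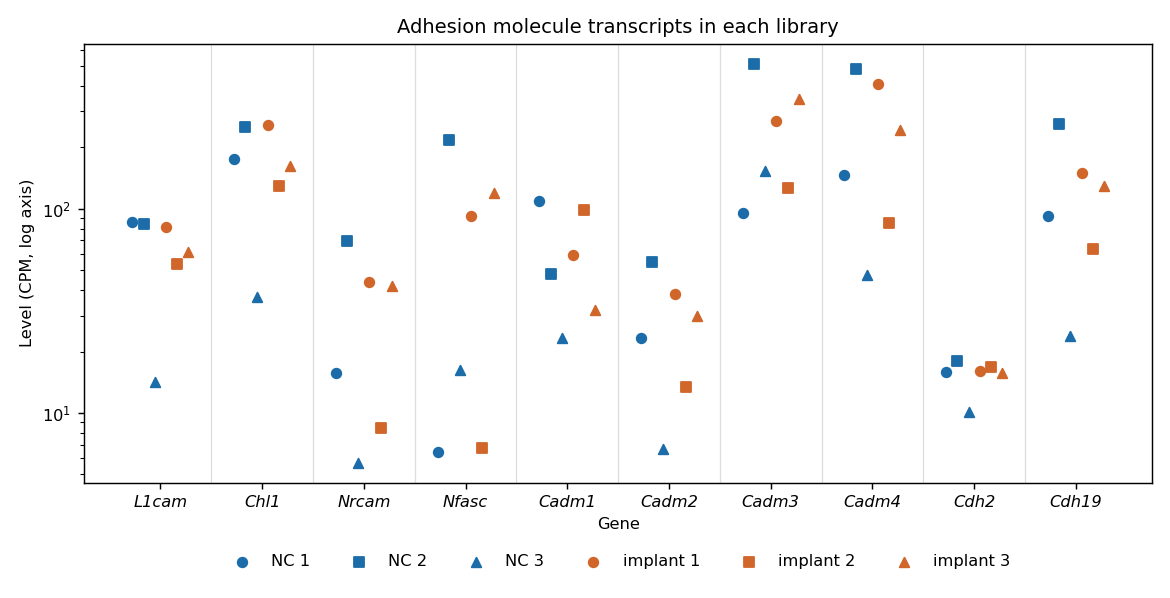
Level of each adhesion gene (vertical axis, CPM on a log scale) in the 3 NC libraries (blue) and the 3 conduit libraries (orange), 1 point per library. The colours overlap for every gene, and Nfasc spreads over 33.9-fold while Cdh2 spreads over 1.76-fold; heights of different genes are not comparable, because gene length is not corrected for.

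L1cam (ENSRNOG00000061230), the founding member of its family, is carried by growing and unmyelinated axons and by the Schwann cells around them. In library order (NC 1, NC 2, NC 3, then implant 1, implant 2, implant 3, kept throughout), it reached 86.3, 83.9 and 14.2 CPM without the implant, against 81.9, 53.9 and 61.2 CPM with it. Only NC 3 was far from the rest: the span was 6.06-fold over 6 libraries and 1.60-fold without NC 3. The mean was 61.5 ± 40.9 CPM for NC and 65.7 ± 14.5 CPM for implanted nerves (SD, n = 3 each), a log2 fold change of 0.09 ± 0.63 (SE).

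Chl1 (ENSRNOG00000045771), the close homologue of L1cam that also promotes neurite growth, had nearly the same profile. It gave 175, 252 and 36.9 CPM without the implant and 259, 129 and 162 CPM in the implanted nerves, again with NC 3 alone far below. Its span was 7.02-fold, and 2.01-fold without NC 3. The mean was 155 ± 109 CPM for NC and 184 ± 67.7 CPM for implanted nerves (n = 3 each), a log2 fold change of 0.24 ± 0.67, the largest positive value of the 10 and smaller than its error.

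Nrcam (ENSRNOG00000004067) helps gather sodium channels at the forming node. It read 15.7, 69.7 and 5.71 CPM for NC, then 43.7, 8.48 and 42.1 CPM for implanted nerves. Here 3 libraries were high (NC 2, implant 1 and implant 3) and 3 were low, and both groups held libraries of each kind. The mean was 30.4 ± 34.4 CPM for NC and 31.4 ± 19.9 CPM for implanted nerves (n = 3 each), a log2 fold change of 0.05 ± 0.99.

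Nfasc (ENSRNOG00000030515) encodes neurofascin, whose glial form anchors the paranodal loops of myelin and whose axonal form builds the node. Counts per gene do not separate these forms. It was the most variable of the 10 and reached 6.44, 218 and 16.3 CPM without the implant, against 92.0, 6.74 and 119 CPM with it. The same 3 libraries were high as for Nrcam, and the other 3 were at 16.3 CPM or less. Its 33.9-fold span was wider than that of 98.3% of all genes. The mean was 80.3 ± 120 CPM for NC and 72.7 ± 58.8 CPM for implanted nerves (n = 3 each), a log2 fold change of -0.14 ± 1.47, with a 95% interval of -3.72 to 3.43.

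Cadm1 (ENSRNOG00000018778), a homophilic and heterophilic adhesion molecule also found outside nerve, ran the other way. It gave 109, 48.1 and 23.4 CPM without the implant and 59.2, 98.6 and 32.0 CPM in the implanted nerves. Its highest libraries, NC 1 and implant 2, were the lowest for Nfasc. The mean was 60.0 ± 43.8 CPM for NC and 63.3 ± 33.5 CPM for implanted nerves (n = 3 each), a log2 fold change of 0.08 ± 0.64. In RefSeq 3 long non-coding RNA models, including Cadm1l1, overlap the span of Cadm1. With this non-stranded kit, RNA of overlapping exons could not be told apart by strand. Overlap of exons was not examined and the annotation behind the counts is not stated. Whether such RNA entered the Cadm1 counts is thus not known. Pseudogene models overlap the spans of Chl1, Cadm2 and Cdh19, with the same limits.

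Cadm2 (ENSRNOG00000030840) read 23.2, 54.8 and 6.65 CPM for NC, then 38.2, 13.4 and 30.0 CPM for implanted nerves. The mean was 28.2 ± 24.5 CPM for NC and 27.2 ± 12.6 CPM for implanted nerves (n = 3 each), a log2 fold change of -0.05 ± 0.75. The order of the libraries, NC 2, implant 1, implant 3, NC 1, implant 2 and NC 3 from high to low, was the order of Nrcam, Cadm4 and Cdh19 too.

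Cadm4 (ENSRNOG00000024243), the main Cadm protein of myelinating Schwann cells, reached 147, 482 and 47.4 CPM without the implant, against 409, 84.8 and 244 CPM with it. NC 2 and implant 1 were high and NC 3 and implant 2 low. The mean was 225 ± 228 CPM for NC and 246 ± 162 CPM for implanted nerves (n = 3 each), a log2 fold change of 0.13 ± 0.91.

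Cadm3 (ENSRNOG00000003365), known as the axonal partner of Cadm4, was detected in all 6 libraries. It gave 94.9, 513 and 153 CPM without the implant and 270, 126 and 346 CPM in the implanted nerves. NC 3 was not its lowest library, unlike in Cadm4 and Cadm2, and the order of the 6 libraries was that of Nfasc. The mean was 254 ± 226 CPM for NC and 247 ± 112 CPM for implanted nerves (n = 3 each), a log2 fold change of -0.04 ± 0.70.

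The 250 bases before the annotated start of 3 Cadm genes are shown because these family members shared much of their pattern but parted in NC 3. They are read 5′ to 3′ from RefSeq (build GRCr8): Cadm4 at chr1:89202839-89203088 (plus strand), Cadm3 at chr13:88349719-88349968 (minus strand) and Cadm2 at chr11:18971887-18972136 (minus strand).
Cadm4: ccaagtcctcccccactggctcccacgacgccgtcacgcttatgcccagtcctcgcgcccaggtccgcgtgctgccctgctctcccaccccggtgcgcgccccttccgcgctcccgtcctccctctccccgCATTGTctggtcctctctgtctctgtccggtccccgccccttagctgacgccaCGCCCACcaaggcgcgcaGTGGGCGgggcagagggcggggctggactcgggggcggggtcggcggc
Cadm3: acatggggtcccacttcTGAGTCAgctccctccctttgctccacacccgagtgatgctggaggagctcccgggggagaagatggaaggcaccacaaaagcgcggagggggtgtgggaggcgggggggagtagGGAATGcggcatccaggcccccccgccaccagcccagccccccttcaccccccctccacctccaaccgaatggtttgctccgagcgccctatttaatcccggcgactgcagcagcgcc
Cadm2: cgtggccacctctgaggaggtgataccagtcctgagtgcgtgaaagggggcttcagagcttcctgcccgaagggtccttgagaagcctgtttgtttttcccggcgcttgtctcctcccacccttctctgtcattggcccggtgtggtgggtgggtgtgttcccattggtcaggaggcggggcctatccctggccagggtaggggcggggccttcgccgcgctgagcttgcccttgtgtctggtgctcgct
Capitals mark matches, on either strand, to motifs chosen after the levels were known: the SOX cores ACAAAG and ACAATG, the EGR core GTGGGCG, the AP-1 core TGAGTCA and the TEAD core GGAATG. No 2 matches overlapped.

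The Cadm4 window held 1 SOX match (119 bases before the start) and 2 EGR matches (66 and 48 bases before it). The Cadm3 window held 1 AP-1 match (233 bases before the start) and 1 TEAD match (118 bases), and the Cadm2 window held none of these letters. Among 33469 windows of the same length from all genes, 25.3% held a SOX core, 6.3% the EGR core, 4.0% the AP-1 core and 12.1% the TEAD core. GC content was 74.0% for Cadm4, 66.4% for Cadm3 and 63.2% for Cadm2, against a median of 51.2% over all windows. RefSeq windows were at hand for 6 of the 10 genes. Those of Chl1, Cdh19 and Nfasc lay within the genes' own models and are not shown, and the SOX core in the Chl1 window was the only match in them.

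Cdh2 (ENSRNOG00000015602), N-cadherin, forms junctions between immature Schwann cells and with axons. It was the steadiest of the 10 and read 15.9, 17.9 and 10.1 CPM for NC, then 16, 16.8 and 15.7 CPM for implanted nerves. Outside NC 3 its 5 libraries lay within 1.13-fold of each other. The mean was 14.6 ± 4.03 CPM for NC and 16.2 ± 0.549 CPM for implanted nerves (n = 3 each), a log2 fold change of 0.14 ± 0.23. Its 95% interval of -0.41 to 0.69 left out a 2-fold change in either direction.

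Cdh19 (ENSRNOG00000029841), a cadherin of Schwann cell precursors and of the glial lineage of nerve, reached 91.8, 260 and 23.7 CPM without the implant, against 150, 63.8 and 129 CPM with it. It was far more variable than Cdh2, with a span of 11.0-fold, and of 4.07-fold without NC 3. The mean was 125 ± 121 CPM for NC and 114 ± 44.7 CPM for implanted nerves (n = 3 each), a log2 fold change of -0.13 ± 0.81.

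**Figure D2:**
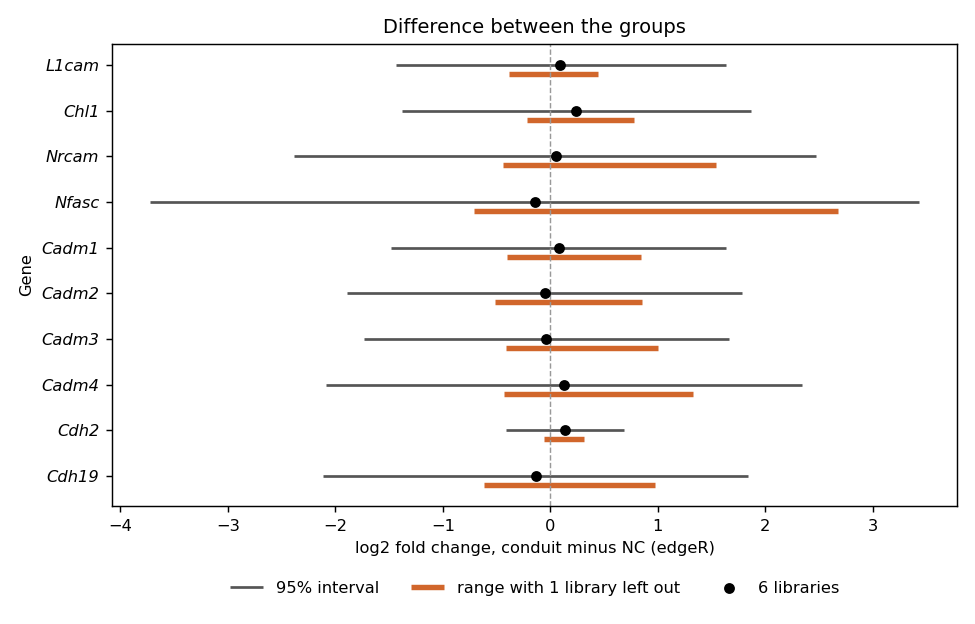
log2 fold change of each adhesion gene, conduit minus NC (horizontal axis), with its 95% interval (grey) and the range of values when each of the 6 libraries is left out in turn (orange). All intervals include 0, and each orange range crosses 0 as well.

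The 95% intervals show how little these libraries bound the difference. They left out a 4-fold change either way for L1cam, Chl1, Cadm1, Cadm2, Cadm3 and Cdh2, and a 2-fold change for Cdh2 only. For Nrcam, Nfasc and Cadm4 a 4-fold change in either direction remained within the interval. For Cdh19 (-2.11 to 1.84) a 4-fold decrease remained and a 4-fold increase did not.

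The sign of each of these 10 small differences also depended on single libraries. Without NC 1 it changed for Nrcam (log2 fold change -0.24) and Cadm4 (-0.08). Without NC 2 it changed for Nfasc (2.68), Cadm1 (-0.07), Cadm2 (0.85), Cadm3 (1.00) and Cdh19 (0.97). Without NC 3 it changed for L1cam (-0.38), Chl1 (-0.22), Nrcam (-0.44), Cadm1 (-0.32), Cadm4 (-0.35) and Cdh2 (-0.06). Leaving out a conduit library did the same. Without implant 1 it changed for L1cam (-0.08), Chl1 (-0.07), Nrcam (-0.24) and Cadm4 (-0.43), and without implant 3 for Nrcam (-0.22). Without implant 2 it changed for Nfasc (0.42), Cadm1 (-0.40), Cadm2 (0.28), Cadm3 (0.30) and Cdh19 (0.17). No adhesion gene was called by edgeR in any of these fits, where the smallest adjusted p among the 10 was 0.963.

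Profiles over the libraries were compared in full only with the lineage, myelinating and repair or immature Schwann marker lists, with no test. The nearest of these lists differed between genes. Lists of other cell types were not compared in full and could lie nearer. On the centred values given below, the perineurium and neuron lists did lie nearer than the lineage list to Cadm3, Cadm4 and Nrcam. Likeness was measured as the root mean square distance between log2 CPM profiles, each centred on its mean over the 6 libraries. Among these Schwann lists, 7 of the 10 genes were nearest to the lineage list: L1cam (distance 0.17 log2 units), Chl1 (0.25), Cdh19 (0.48), Cadm2 (0.50), Cadm4 (0.73), Nrcam (0.89) and Cadm3 (1.02). A list of 2 tested perineurium genes stood at -0.59, 0.76, -0.91, 0.54, -0.46 and 0.67 after centring. The list of 5 tested neuronal genes stood at -0.72, 0.79, -0.74, 1.44, -0.80 and 0.03. Cadm3 stood at -1.15, 1.28, -0.46, 0.36, -0.74 and 0.71. Cadm4 stood at -0.25, 1.46, -1.88, 1.23, -1.04 and 0.48, and Nrcam at -0.45, 1.69, -1.89, 1.02, -1.33 and 0.96. Nfasc was nearest to 6 genes of myelinating Schwann cells, at 0.22, and stood 1.92 from the lineage list. Cadm1 was nearest to 6 tested genes of repair or immature Schwann cells, at 0.29, and stood 2.62 from the myelin list. Of these Schwann lists, the repair list was also the nearest to Cdh2, at 0.56, though Cdh2 spanned only 0.81. A pericyte and smooth muscle list, not compared, stood at -0.02, 0.29, -0.15, 0.32, -0.06 and -0.39 after centring. Cdh2 stood at 0.07, 0.23, -0.58, 0.07, 0.15 and 0.05.

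Ngfr, the low-affinity neurotrophin receptor of denervated Schwann cells, belongs to the repair list. It gave 434, 109 and 43.7 CPM without the implant and 240, 380 and 84.8 CPM in the implanted nerves, so NC 1 and implant 2 were its highest libraries and NC 3 its lowest, as for Cadm1. The list was not uniform. Jun, Gap43, Sox2 and Runx2 were also highest in NC 1 and implant 2, but NC 3 was not the lowest library for Jun or Gap43. Shh ran the other way, at 0.623 CPM in NC 1 and 0.38 CPM in implant 2 against 22.5 CPM in NC 2 and 26.2 CPM in implant 1. Cadm1 lay on the same side of its mean as the repair list in 6 of 6 libraries, and on the same side as the myelin list in 2 of 6. Nfasc and the myelin list lay on the same side in 6 of 6. So did Nrcam, Cadm3, Cadm4 and Cdh19, which lay on the side of the lineage list in 4 of 6 although it was nearer by distance. For these 4 genes the 2 measures thus point to different lists.

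**Figure D3:**
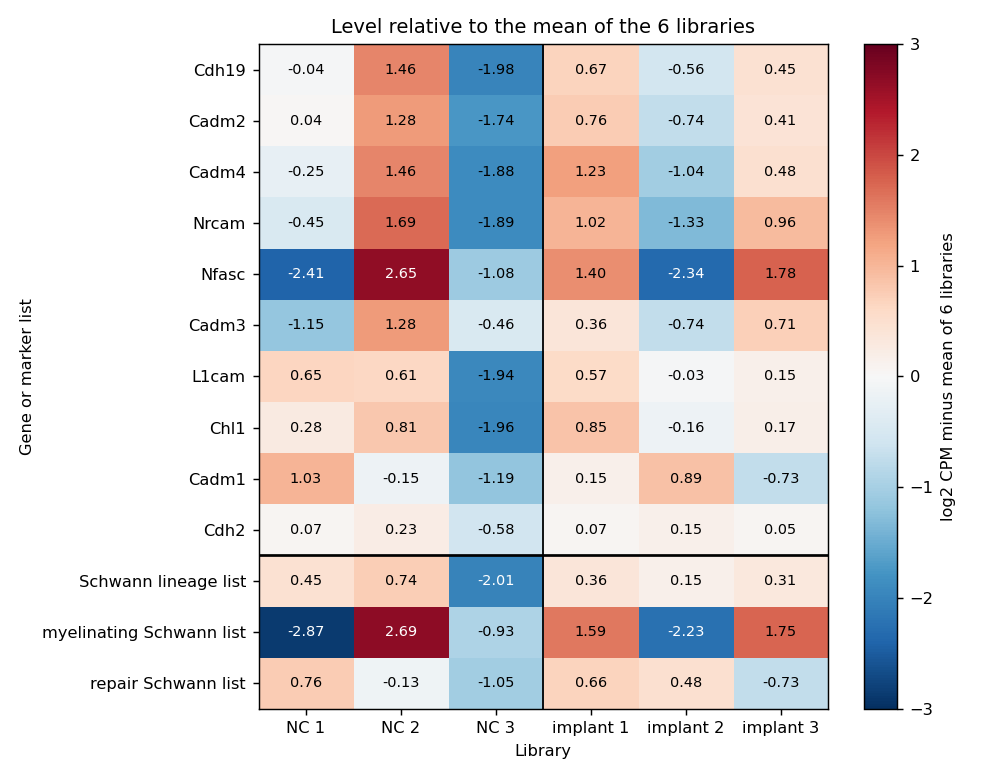
Level of each adhesion gene and of 3 Schwann cell marker lists in each library, as log2 CPM minus the mean over the 6 libraries (red above, blue below). Nfasc follows the myelinating list (2.65 and 2.69 in NC 2), Cadm1 follows the repair list (1.03 and 0.76 in NC 1), and NC 3 is below the mean for all 10 genes.

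Between members, Cadm2 and Cdh19 were closest (0.15 log2 units), followed by L1cam and Chl1 (0.21), and Nfasc and Cadm1 were farthest apart (2.51). Among 11219 other genes compared with each, the nearest to L1cam were Ptprz1 (0.15), Atl1 (0.15) and Ank3 (0.16), the last of which encodes ankyrin G. Those nearest to Chl1 were Metrn (0.12), Plekha7 (0.14) and Bambi (0.17). Nrcam was nearest to Lingo1 (0.12), Gpm6b (0.15) and Sh3tc2 (0.18), a gene whose loss causes a demyelinating neuropathy. Nfasc had Lrrtm4 (0.16), the myelin gene Pmp22 (0.18) and Arhgap19 (0.19). The distances of these genes rest on the same 6 libraries and share their depth and scaling. Many other genes were also near: those within 0.5 log2 units numbered from 28 for Nfasc to 386 for Cadm3.

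In the Cadm family, Cadm1 was nearest to Mdk (0.08), the growth factor midkine, then Pxylp1 (0.18) and Shd (0.20). Cadm2 was nearest to Slc35f1 (0.04), Cdh19 (0.15) and Hepacam (0.19), an adhesion molecule of glia. Cadm3 had Chn2 (0.09), Tox (0.10) and Caskin2 (0.11), and Cadm4 had Grik2 (0.18), Reln (0.19) and Hspa2 (0.20). Cdh19 was nearest to Cadm2 (0.15), Lgi4 (0.16) and Cmtm5 (0.18). Lgi4 encodes a secreted Schwann cell protein needed for myelination.

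Set against the Schwann lineage level, 8 of the 10 adhesion genes spanned less, largely through NC 3. The mean log2 CPM of Sox10, Erbb3 and Foxd3 spanned 2.75 units and was lowest in NC 3 (-2.01). After subtracting it, L1cam spanned 0.39 units where it had spanned 2.59, and Chl1 spanned 0.80 (from 2.81). Cadm2 spanned 1.43 (from 3.02) and Cdh19 1.43 (from 3.45). Cadm1 (1.87), Cadm4 (2.06), Nrcam (2.43) and Nfasc (4.77) narrowed as well. Without NC 3 the lineage level spanned only 0.59 units and the narrowing was smaller: L1cam went from 0.68 to 0.39, Chl1 from 1.01 to 0.80 and Cdh19 from 2.02 to 1.43. These levels rest on 3 marker genes. The share of all genes that would narrow in this way is not given, so the count of 8 of 10 has no background to be read against.

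Cadm3 and Cdh2 did not narrow over the 6 libraries. Without NC 3 there were again 8 of 10 that narrowed, but Cadm3 was among them (2.43 to 2.15) and Cadm1 was not (1.76 to 1.78). Relative to the lineage level, Cadm3 spanned 3.15 units and was highest in NC 3 (1.55) and lowest in NC 1 (-1.60). Cdh2 spanned 1.94 and was highest in NC 3 (1.43). Cadm1 narrowed little, with NC 1, NC 3 and implant 2 at 0.57, 0.83 and 0.74, and NC 2, implant 1 and implant 3 at -0.88, -0.21 and -1.04. NC 3 was the library with high fat cell and haemoglobin transcripts, and their part in the relative levels of Cadm3 and Cdh2 was not tested. On this scale the difference of mean log2 ratios, conduit minus NC, ran from -0.36 (Cdh2) to 0.03 (Chl1). This measure is not edgeR's log2 fold change.

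**Figure D4:**
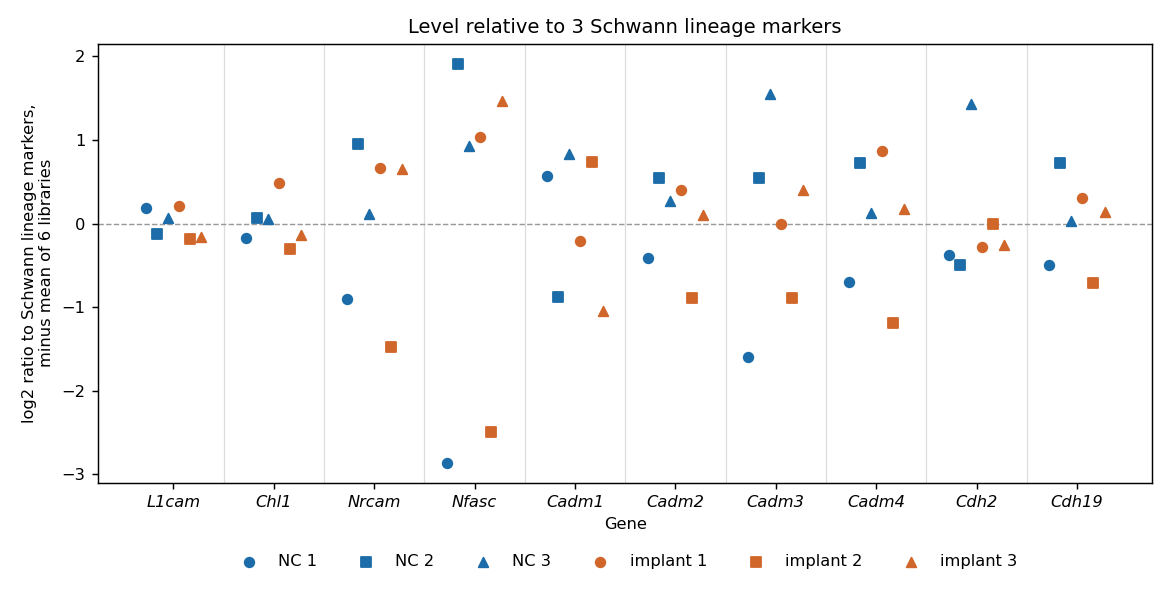
log2 ratio of each adhesion gene to the mean of Sox10, Erbb3 and Foxd3, minus its mean over the 6 libraries (vertical axis), 1 point per library, NC in blue and conduit in orange. L1cam and Chl1 each span less than 1 unit, Nfasc spans 4.77, and NC 3 is the highest library for Cadm3 (1.55) and Cdh2 (1.43).

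Ratios within a library compared members of 1 kind. Nfasc against L1cam, a member of the myelinated fibre against one of growing and unmyelinated fibres, differed most: the log2 ratio, centred on its mean, was -3.05, 2.04 and 0.86 in NC and 0.83, -2.31 and 1.63 with the conduit. Cadm4 against Cadm1 gave -1.28, 1.61 and -0.70 in NC and 1.08, -1.93 and 1.21 with the conduit. NC 1 and implant 2 were thus the 2 lowest libraries for both ratios. Cdh19 against Cdh2 gave -0.11, 1.23 and -1.41 in NC and 0.59, -0.71 and 0.40 with the conduit. Cadm4 against Cadm3 gave 0.90, 0.18 and -1.42 in NC and 0.87, -0.30 and -0.23 with the conduit, lowest in NC 3.

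The conduit-minus-NC differences of these 4 log2 ratios were 0.10, 0.24, 0.19 and 0.22, in the order given. They compare group means of log2 CPM and need not match the edgeR log2 fold changes of the genes. Those were lower for Nfasc (-0.14) than for L1cam (0.09), and lower for Cdh19 (-0.13) than for Cdh2 (0.14). The two-sided exact permutation p was 1, 1, 0.9 and 1, and each was 1 after adjustment over the 4 ratios. With 3 against 3 libraries the smallest possible p is 0.1, so no ratio could have passed 0.05. Each difference was smaller than the SD of its ratio within either group, and each sign changed when some single library was left out. Nfasc against L1cam reached -1.40 without NC 1, -0.29 without implant 1 and -0.69 without implant 3. Cadm4 against Cadm1 reached -0.34 without NC 1, -0.05 without NC 3, -0.24 without implant 1 and -0.31 without implant 3. Cdh19 against Cdh2 reached -0.47 and Cadm4 against Cadm3 -0.43 without NC 3, and without implant 1 they reached -0.06 and -0.15.

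No gene of 4 related lists was called either. Of their 65 genes 58 were tested, and edgeR called 0 higher and 0 lower. DESeq2 called 0 as well, but it gave no adjusted p for Gldn. At an unadjusted p under 0.05 edgeR found 1 of the 58, against 1.72% of all genes. The groups did not overlap for 2 of the 58, against 5.69% of all genes, so neither count stood above the background. Their median log2 fold change was 0.06, with 35 positive and 23 negative, and their median span was 1.15 log2 units.

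Among 17 tested genes of nodes, paranodes and juxtaparanodes the median log2 fold change was -0.03. Cntnap1, which encodes the paranodal axonal protein Caspr, had the smallest unadjusted p. It read 5.56, 6.99 and 8.17 CPM for NC, then 12.4, 8.69 and 11.3 CPM for implanted nerves, so the groups did not overlap. Its log2 fold change was 0.65 ± 0.23 (edgeR unadjusted p 0.0288, adjusted p 1). Scn8a, a sodium channel of mature nodes, reached 1.19, 1.39 and 4.41 CPM without the implant, against 1.05, 0.761 and 1.12 CPM with it. Its log2 fold change was -1.24 ± 0.60 (edgeR unadjusted p 0.0857, adjusted p 1), and NC 3 alone was far from the other 5 libraries. Cntnap2 (0.15 ± 0.44) and Adam22 (-0.29 ± 0.33) were next in each direction.

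Several genes of this list, picked after their values were seen, swung as Nfasc did. Gldn, which encodes gliomedin, the Schwann cell ligand that binds neurofascin at the node, gave 4.88, 252 and 12.2 CPM without the implant and 124, 2.72 and 135 CPM in the implanted nerves. The potassium channel Kcna1 read 1.3, 424 and 23.1 CPM for NC, then 188, 6.90 and 281 CPM for implanted nerves. In both, as in Nfasc, NC 2, implant 1 and implant 3 were high. Cntn1, the contactin of the paranodal axon, also picked in this way, had no such swing and reached 5.56, 8.27 and 9.18 CPM without the implant, against 5.33, 8.20 and 8.96 CPM with it. The neurofilament gene Nefl, an axonal marker, gave 1.3, 26.8 and 2.02 CPM without the implant and 55.3, 1.03 and 17.2 CPM in the implanted nerves. It was thus high in the same 3 libraries, and so was Nefm. Tubb3 followed in part: it was highest in implant 1 (7.43 CPM) and NC 2 (5.95), but implant 3 (3.95) barely exceeded NC 3 (3.9). Prph and Snap25 did not follow, with Prph at 2.46 to 3.92 CPM and Snap25 highest in implant 2 (1.25 CPM) and at 0 in implant 3. The part of axonal RNA in the swing of Nfasc was not tested.

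Among 10 tested cadherins and catenins the median log2 fold change was 0.08. Cdh11 (0.25 ± 0.22) and Pkp4 (0.18 ± 0.20) had the smallest unadjusted p on the positive side, and Ctnna1 (-0.07 ± 0.14) and Cdh1 (-0.27 ± 1.74) on the negative side. Cdh1, the E-cadherin of the autotypic junctions of myelinating Schwann cells, read 2.23, 235 and 14.2 CPM for NC, then 85.1, 2.93 and 121 CPM for implanted nerves, a swing unlike that of Cdh2. Ctnnb1, beta-catenin, which links cadherins to the cytoskeleton, was picked after its values were seen and ran from 386 to 501 CPM over the 6 libraries.

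The 17 other adhesion molecules had a median log2 fold change of 0.10 and the widest median span of the 4 lists, 2.23 log2 units. Nrxn2 (0.27 ± 0.15) and Bcam (0.12 ± 0.18) led on the positive side, and Mcam (-0.26 ± 0.18) and Nectin3 (-0.14 ± 0.12) on the negative side. Ncam1, a homophilic molecule of non-myelinating Schwann cells, reached 39.0, 98.2 and 20.8 CPM without the implant, against 75.2, 32.2 and 61.2 CPM with it. Ncam1 and Sema4f were named after their values were seen. Sema4f resembled Cadm1 in being highest in NC 1 and implant 2. It gave 29.1, 5.14 and 4.19 CPM without the implant and 8.08, 23.6 and 4.66 CPM in the implanted nerves.

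The 14 tested genes of the list of partners, mostly scaffold and cytoskeletal linker proteins and also the membrane co-receptor Nrp1, had a median log2 fold change of 0.03. Msn (0.10 ± 0.14) and Farp1 (0.13 ± 0.20) led on the positive side, and Epb41l1 (-0.31 ± 0.26) and Dcx (-0.16 ± 0.60) on the negative side. Rdx, the cytoskeletal linker radixin, named after its values were seen, had the smallest span of the 14 at 142 to 165 CPM.

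**Figure D5:**
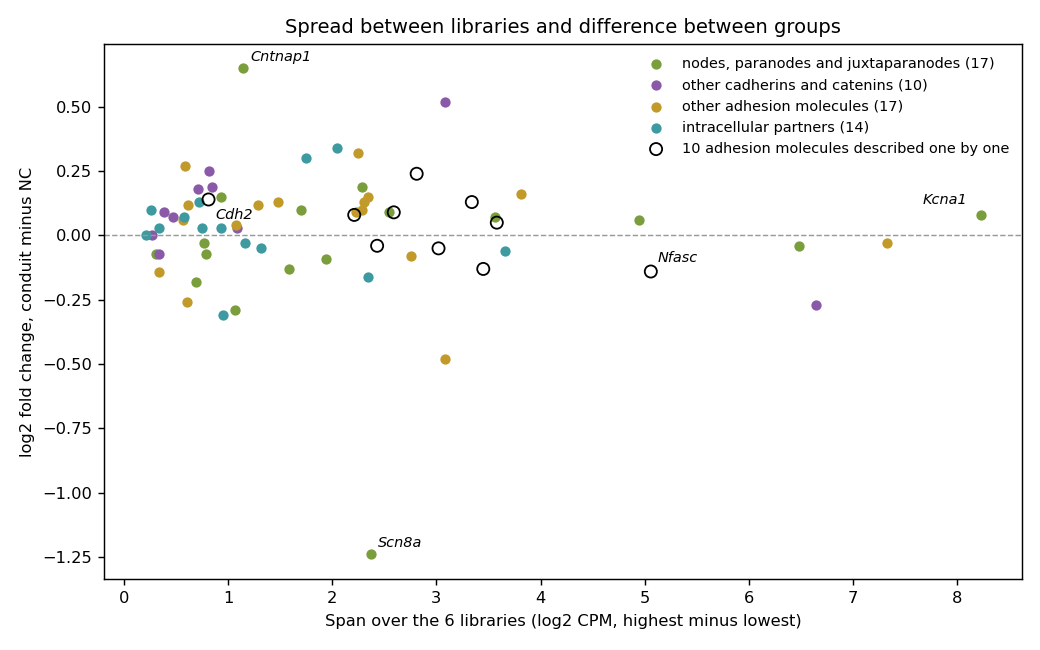
Span over the 6 libraries (horizontal axis, log2 CPM) against log2 fold change, conduit minus NC (vertical axis), for the 10 adhesion genes (open circles) and 58 genes of 4 related lists (filled). Scn8a (-1.24) and Cntnap1 (0.65) are the 2 points farthest from a fold change of 0, and Nfasc, with a span of 5.06, sits at -0.14.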

How the data were processed

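The messenger RNA of 6 libraries was analysed, 3 per group, with groups from the titles. Per the labels' protocols, oligo(dT) selection and a NEBNext Ultra kit were used. Bowtie2 2.2.8, HISAT2, StringTie 1.3.1 and DESeq2 appear in the submitters' processing notes without roles, and no counter, build or annotation is stated there. The authors deposited estimated counts (expected counts) per gene, 1898 to 2085 of them per library not whole, which were rounded. Treated columns, named Gel_HA-Mg, were taken as GDNF-Gel/HA-Mg.

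Groups were compared with edgeR 4.0.16 in R 4.3.3 (filterByExpr, TMM, two-sided quasi-likelihood test, Benjamini-Hochberg over 13999 genes, threshold 0.05). Each standard error is the log2 fold change over the root of F, so intervals are approximate. Profiles used log2 CPM with a prior count of 2. Alternatives were DESeq2 1.42.0, limma-voom (limma 3.58.1), other scalings and filters, a replicate block and each library left out. On simulated counts for this comparison (13813 genes), edgeR recovered 6 of 50 genes at a 2-fold change and 35 of 50 at 4-fold. These rates were not computed for the 10 adhesion genes. Their median SE in the real data was 0.72, against 0.23 for all genes tested. Figures used matplotlib 3.10.9.

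The members and lists were chosen with earlier results of these data known. A few marker genes are not reported here and were left out of the lists and of every value computed from them. Named genes are the 10 members, the 2 of smallest unadjusted p in each direction of each related list, markers, and, for members spanning 2 log2 units or more, the 3 nearest profiles among genes with an established symbol and a mean log2 CPM of 2 or more.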

Additional observations from a re-analysis of the deposited data

How the results depend on the processing

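No adhesion gene was called under any alternative, and edgeR called 0 genes higher and 0 lower in every fit, while DESeq2 called 5 higher and 6 lower, none of them among the 10. RLE, upper-quartile and composition-trimmed TMM scaling and both other filters kept the sign of all 10 log2 fold changes. Voom turned 4 of them, to 0.55 (Nfasc), 0.22 (Cadm2), 0.22 (Cadm3) and 0.39 (Cdh19). The replicate block turned the same 4, to 1.73, 0.34, 0.33 and 0.43. All 10 were then positive, from 0.16 (Cdh2) to 0.61 (Chl1) with voom and from 0.18 (Cdh2) to 1.73 (Nfasc) with the block. Voom fits log2 CPM, whereas edgeR fits counts. The cause of the turned signs was not tested, and the share of all genes that were positive in these 2 fits is not given. Whether the replicate numbers pair the samples is not known. The correlations of same-numbered libraries' deviations were 0.10, -0.72 and 0.06, and those of differently numbered libraries ran from -0.61 to 0.52. With so few libraries these values cannot settle it.

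With each library left out in turn, log2 fold changes ranged from -0.38 to 0.44 (L1cam), -0.22 to 0.78 (Chl1), -0.44 to 1.54 (Nrcam), -0.71 to 2.68 (Nfasc), -0.40 to 0.84 (Cadm1), -0.51 to 0.85 (Cadm2), -0.41 to 1.00 (Cadm3), -0.43 to 1.33 (Cadm4), -0.06 to 0.31 (Cdh2) and -0.62 to 0.97 (Cdh19). Log2 ratios ranged from -1.40 to 1.28 (Nfasc against L1cam), -0.34 to 1.27 (Cadm4 against Cadm1), -0.47 to 0.85 (Cdh19 against Cdh2) and -0.43 to 0.73 (Cadm4 against Cadm3). A prior count of 0.5 kept the sign of all 4 ratios. Every adhesion gene had 79 or more counts in each library.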
